A study of Homo sapiens with 12 samples.

Results

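The 77 genes described here encode the proteins of the cytosolic ribosome. They were taken by symbol from the 26364 genes in the deposited count files: every symbol made of RPL or RPS and a number, with or without a final A or X, and *RPLP0*, *RPLP1*, *RPLP2* and *RPSA*. Of these, 46 belong to the large and 31 to the small subunit. The rule uses symbols and no measured value. The genes were read in 12 libraries of total RNA from HCT116 cells, a human colon cancer cell line. Wildtype (WT) cells and a p65-deficient derivative were kept without inhibitor, or were treated for 2 h at 5 µM with CPT, which inhibits TOP1, or with ICRF193, which inhibits TOP2. Each of these 6 states was read with no TNFα (0 h) and after 1 h of TNFα at 20 ng/mL, which gives 1 library for each of 12 conditions and no replicates.

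The labels call the p65-deficient libraries shRNA p65, whereas the study's methods describe a single-cell clone, clone 32, made with CRISPR-Cas9. Because it is 1 clone, the loss of p65 and other properties of that clone cannot be told apart. *RELA*, which encodes p65, was at 48.8 to 63.5 CPM in the 6 WT libraries and at 38.5 to 46.9 CPM in the 6 p65-deficient libraries, without overlap (CPM, a gene's reads scaled to a common library size with TMM factors). Between 8101212 and 22051046 reads were counted per library. The p65-deficient libraries with ICRF193 at 0 h and with all 3 treatments at 1 h are the shallow ones, at 8101212 to 8755001 reads. Of 8 epithelial markers, 7 had a mean of at least 1 CPM, whereas none of 4 lymphoid, 3 myeloid and 3 endothelial markers and 1 of 4 fibroblast markers did. That fibroblast marker was *COL1A1* (57 to 227 reads per library), and *COL1A2*, *COL3A1* and *DCN* had at most 3 reads in any library. The summed fibroblast markers lay at 8.24 to 13.6 CPM in the CPT libraries and at 5.21 to 7.35 CPM in the other libraries. This sum is nearly all *COL1A1* and so reads 1 gene, not a cell type. Its part in the results was not tested.

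A ribosome contains one copy of nearly every ribosomal protein, assembled with ribosomal RNA in the nucleolus, and cells make these proteins in matched amounts. Most of their mRNAs begin with a C followed by a run of pyrimidines, the terminal oligopyrimidine (TOP) tract, through which growth signals control their translation. CPT traps TOP1 on DNA and so blocks elongating RNA polymerases, those that make ribosomal RNA included. ICRF193 holds TOP2 as a closed clamp around DNA and does not stabilise DNA breaks as CPT does.

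Many of these genes share a sequence feature at the start of the transcript. In the RefSeq promoter table for GRCh38.p14, 62 of the 77 genes were found. A C at an annotated start followed by at least 4 further pyrimidines was present in 46 of them (74.2%), against 5.14% of all 27305 genes in that table. Windows of 30 bases are shown for genes on which the results turn, with 15 bases on either side of the boundary before the annotated start, so that the start is base 16. Capitals mark the pyrimidine run that contains the start, from the first C of that run. The first 6 are the stalk genes, *RPS6* and the deeply counted genes with the highest CPT estimates. The next 3 are genes whose CPT estimate did not pass the threshold, and the last 3 have no C-led run at the start.
RPLP0 (chr12:120201097-120201126, minus strand): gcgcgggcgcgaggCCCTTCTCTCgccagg
RPLP1 (chr15:69452803-69452832, plus strand): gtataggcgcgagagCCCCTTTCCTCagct
RPLP2 (chr11:809952-809981, plus strand): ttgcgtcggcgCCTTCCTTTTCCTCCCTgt
RPS6 (chr9:19380222-19380251, minus strand): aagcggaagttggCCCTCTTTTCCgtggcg
RPL35 (chr9:124861943-124861972, minus strand): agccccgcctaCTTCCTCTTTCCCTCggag
RPL36 (chr19:5690280-5690309, plus strand): ccgcgcggcgccagCCCTTCCgccacggcc
RPL13A (chr19:49487593-49487622, plus strand): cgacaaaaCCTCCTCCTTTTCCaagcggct
RPL22 (chr1:6199581-6199610, minus strand): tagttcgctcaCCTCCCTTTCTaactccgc
RPL36A (chrX:101390996-101391025, plus strand): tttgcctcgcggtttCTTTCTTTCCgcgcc
RPL4 (chr15:66504841-66504870, minus strand): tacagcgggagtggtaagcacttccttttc
RPL27 (chr17:42998404-42998433, plus strand): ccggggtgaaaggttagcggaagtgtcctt
RPS4X (chrX:72277234-72277263, minus strand): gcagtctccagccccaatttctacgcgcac

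The runs in the first 9 windows differ in length and in their order of C and T, and in the last 3 windows the annotated start is a purine. Other motifs were searched on both strands of the window from 250 bases before to 50 bases after the start. CCGGAAG, a core of GABP sites, was present in 22 of 62 genes (35.5%, against 12.2% of all genes). AAGATGG, found in YY1 sites, was present in 8 (12.9%, against 7.11%), TATAAA in 5 (8.06%, against 14.0%) and the E-box CACGTG in 4 (6.45%, against 8.77%). The same TOP criterion was met by 6 of 67 mitochondrial ribosomal protein genes (8.96%). Among these 67, CCGGAAG was present in 28 (41.8%), AAGATGG in 24 (35.8%), TATAAA in 3 (4.48%) and CACGTG in 8 (11.9%). The higher shares of CCGGAAG and AAGATGG were thus not particular to the cytosolic genes.

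The levels of the 77 genes spanned several orders of magnitude, although their proteins are needed in like amounts. Per kilobase of exon, the mean level over the 12 libraries was highest for *RPL37A* (2008 CPM per kb), *RPL30* (1899.7), *RPL38* (1881), *RPL8* (1866) and *RPL11* (1791), and the median gene stood at 332 CPM per kb. Among the lowest were *RPL21* (0.0156), *RPS10* (2.11), *RPL39* (2.20) and *RPL7* (2.74). *RPL21* had 0 to 1 reads per library and fell under the expression filter, and 75 of the 77 genes were tested. *RPL21*, *RPS10*, *RPL39*, *RPL7*, *RPS27* and *RPS28* stayed under 100 reads in every library.

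Ribosomal protein genes have many processed pseudogenes, and the counting left out reads that map to several places or to overlapping genes. How much of each gene is distinct was therefore measured on GENCODE 29 (GRCh38), as the share of its 50-base windows found at no other annotated locus. For *RPL7* this share was 4.35%, for *RPL21* 22.4%, for *RPL9* 25.9% and for *RPS3A* 26.3%, and 16 genes had less than 50%. In the hg19 gene models, 7 genes shared 10% or more of their exonic bases with another gene, among them *RPL21* with *RPL21P28* (99.3%), *RPS10* with *RPS10-NUDT3* (62.5%), *RPL13A* with *RPL13AP5* (55.8%) and *RPL10* with *DNASE1L1* (42.7%). Across the 77 genes, level per kb and percent unique windows had a Spearman rho of 0.51. This is a description over genes that share libraries, and reads that the counting left out are missing from the levels.

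**Figure D1:**
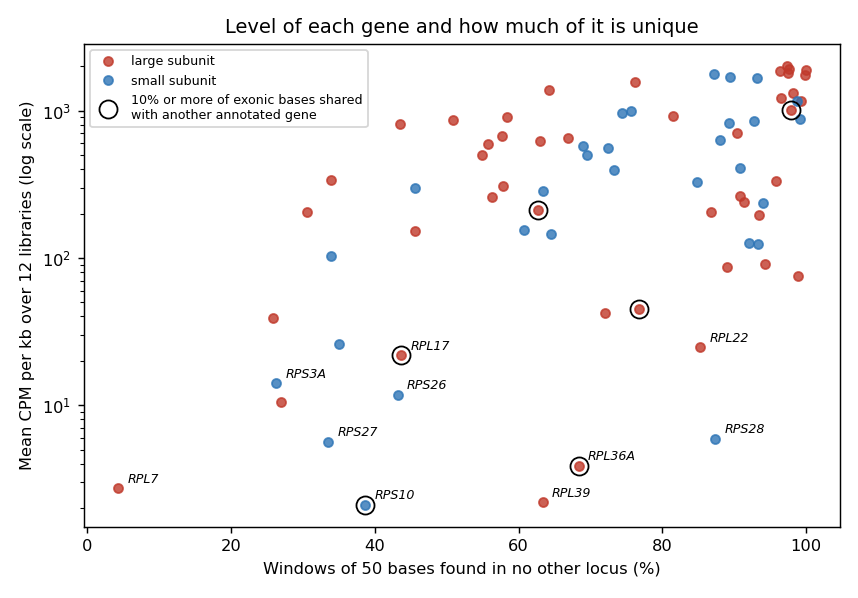
Mean level of each of the 75 genes tested over 12 libraries (CPM per kb of exon, log scale) against the percentage of its 50-base windows found at no other annotated locus; red points are large and blue points small subunit genes, and black circles mark the 6 genes with 10% or more of exonic bases shared with another gene. *RPS10*, *RPL39* and *RPL7* lie lowest, and *RPL7* has the lowest percentage of unique windows (4.35%).

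CPT was compared with no inhibitor to see how inhibition of TOP1 changes basal and TNFα-induced expression. The ribosomal protein mRNAs were higher with CPT, by a small and even amount. Of 75 genes tested, 65 rose and 0 fell (edgeR quasi-likelihood test over 4 pairs of libraries, Benjamini-Hochberg adjusted p under 0.05), where 23.2% of all 13993 genes rose and 25.1% fell. The log2 fold change was above 0 for each of the 75, with a median of 0.26 (1.19-fold) against 0.024 over all genes. The 64 raised genes with at least 100 reads in every library lay between 1.11-fold and 1.27-fold. Large subunit genes (39 of 45 raised, median 0.26) and small subunit genes (26 of 30, median 0.25) had like medians.

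The whole group took 3.43% of counted reads in WT cells without inhibitor at 0 h and 3.59% at 1 h, and 3.34% and 3.23% in p65-deficient cells. With CPT the shares were 3.99% and 4.12% in WT and 4.06% and 4.11% in p65-deficient cells. With ICRF193 they were 3.48% and 3.51%, and 3.25% and 3.24%. All 4 CPT libraries thus lay above the 8 others, whose highest share was 3.59%. This separation was not particular to the group. Mitochondrial ribosomal protein genes took 0.711% to 0.742% with CPT and at most 0.695% in the others. The 10 most abundant genes outside the group took 7.30% to 8.20% with CPT and at most 7.06% in the others. Exact binomial 95% intervals, which cover counting error only, reached at most from 4.09% to 4.12% for a CPT library. These are shares of the counted RNA, and more ribosomal protein mRNA per cell and less of other mRNAs cannot be told apart in them.

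**Figure D2:**
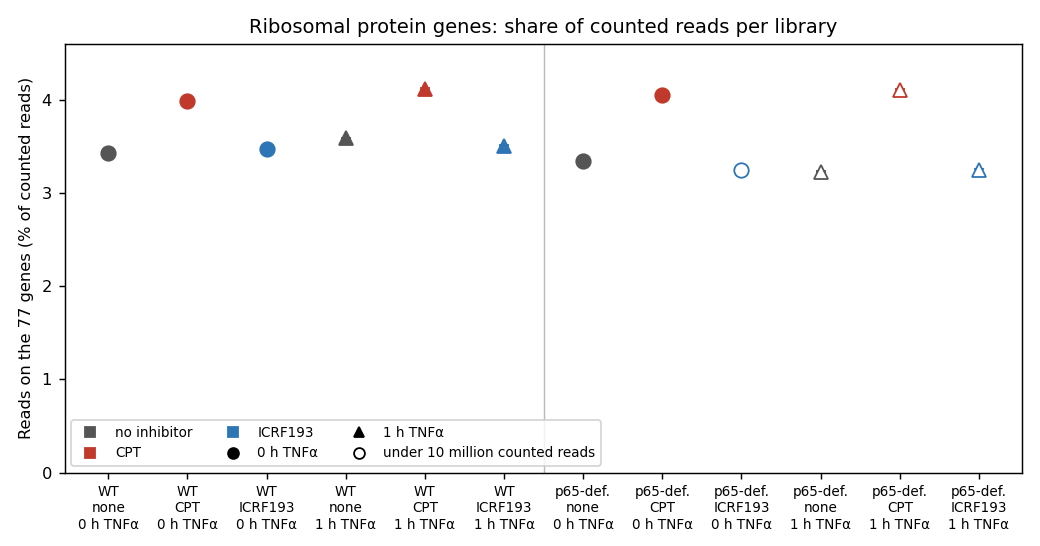
Reads on the 77 genes as a percentage of all counted reads in each of the 12 libraries, 1 point per library with its exact binomial 95% interval (smaller than most symbols); colour gives the inhibitor, triangles 1 h TNFα and open symbols the 4 shallow libraries. The 4 CPT libraries sit between 3.99% and 4.12%, above the 8 others at 3.23% to 3.59%.

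*RPLP0*, *RPLP1* and *RPLP2* encode the stalk proteins, which recruit elongation factors to the ribosome, and their mRNAs were all raised. *RPLP0* (chr12:120634503-120639014 of hg19) stood at 951, 979, 1122 and 987 CPM without inhibitor, in the order WT 0 h, WT 1 h, p65-deficient 0 h and p65-deficient 1 h, and at 1127, 1163, 1414 and 1283 CPM with CPT. Its 4 CPT libraries lay above the 4 without inhibitor, and its log2 fold change was 0.30 ± 0.047 (SE, adjusted p = 0.000333). *RPLP2* stood at 829, 873, 789 and 719 CPM and with CPT at 975, 1059, 1002 and 951 CPM in the same order, again without overlap, for a log2 fold change of 0.31 ± 0.047 (SE, adjusted p = 0.000234). *RPLP1* was at 370.4, 385, 345 and 274 CPM without inhibitor and at 380.4, 459, 447 and 374 CPM with CPT. Here the groups overlapped, since the WT 0 h library with CPT and the p65-deficient 1 h library with CPT lay under the WT 1 h library without inhibitor, and the log2 fold change was 0.28 ± 0.059 (SE, adjusted p = 0.00286).

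RPL5 and RPL11 join a ribosomal RNA of the large subunit before assembly and, when free, bind MDM2, the ligase that degrades p53. *RPL11* (chr1:24018269-24022915) rose from 1049, 1129, 1061 and 1043 CPM to 1210.3, 1293, 1293 and 1351 CPM, with no overlap and a log2 fold change of 0.26 ± 0.049 (SE, adjusted p = 0.00106). *RPL5* (chr1:93297594-93307481) rose from 641, 678, 632 and 622 CPM to 744, 726, 717 and 768 CPM. All its CPT libraries were above those without inhibitor, and its log2 fold change was 0.20 ± 0.046 (SE, adjusted p = 0.00450), among the smaller ones of the raised genes.

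Of the other large subunit genes fixed for description, *RPL3*, whose protein lies near the centre where peptide bonds form, rose by 0.23 ± 0.046 (SE, adjusted p = 0.00178) on the log2 scale. *RPL10*, whose protein joins the large subunit late in its maturation, rose by 0.26 ± 0.048 (SE, adjusted p = 0.00111). *RPL41*, which encodes the smallest ribosomal protein, rose by 0.31 ± 0.090 (SE, adjusted p = 0.0160) from low counts (183 to 582 reads). These 3 were higher with CPT in each of the 4 pairs. *RPL35* (chr9:127620158-127624240) and *RPL36* (chr19:5690272-5691678) had the highest estimates among genes with deep counts. *RPL35* stood at 586, 635, 558 and 540.1 CPM without inhibitor and at 748, 765, 722 and 709 CPM with CPT, and rose by 0.35 ± 0.043 (SE, adjusted p = 6.09e-05). *RPL36* stood at 769, 826, 693 and 657 CPM and at 919, 962, 918 and 937 CPM and rose by 0.35 ± 0.055 (SE, adjusted p = 0.000350). For both, each CPT library was above every library without inhibitor.

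In the small subunit, *RPS6*, which encodes the substrate of S6 kinase and a readout of growth signalling, stood at 1460.5, 1542, 1339.8 and 1290.1 CPM without inhibitor and at 1645, 1625, 1562 and 1626 CPM with CPT. The groups did not overlap, and the log2 fold change was 0.20 ± 0.053 (SE, adjusted p = 0.00926). *RPS19*, the gene most often mutated in Diamond-Blackfan anaemia, rose by 0.27 ± 0.052 (SE, adjusted p = 0.00150). *RPS14*, whose reduced dose underlies the erythroid defect of a subtype of myelodysplastic syndrome, rose by 0.23 ± 0.048 (SE, adjusted p = 0.00206). *RPS3*, whose protein sits where mRNA enters the ribosome, rose by 0.22 ± 0.048 (SE, adjusted p = 0.00266). These 3 were higher with CPT in all 4 pairs. *RPSA*, whose protein was also described as a laminin receptor, rose by 0.25 ± 0.043 (SE, adjusted p = 0.000761), and *RPS27A*, which encodes a fusion of ubiquitin with a ribosomal protein, by 0.22 ± 0.058 (SE, adjusted p = 0.00855).

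The highest estimate of all came from *RPS27* (0.77 ± 0.22, SE, adjusted p = 0.0129), which had only 7 to 61 reads per library and 33.5% unique windows. Its log2 ratios in the 4 pairs were 0.35, 0.65, 0.94 and 1.79, a far wider spread than in the deeply counted genes. *RPS10* (0.43, adjusted p = 0.195 by edgeR) and *RPS28* (0.33, adjusted p = 0.331) also had high estimates and few reads, and neither passed.

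Besides *RPS10* and *RPS28*, the genes past no threshold included *RPL13A*, *RPL22*, *RPL36A*, *RPL39*, *RPL7*, *RPS26* and *RPS3A*. Most of these have few reads, few unique windows or overlapping neighbours. *RPL13A*, which encodes a protein also known from translational silencing of inflammatory mRNAs, was counted deeply and stood at 262, 266, 257 and 217 CPM without inhibitor and 275, 279, 246 and 232 CPM with CPT. The groups overlapped, with a log2 fold change of 0.042 ± 0.043 (SE, adjusted p = 0.447), and 55.8% of its exonic bases are shared with *RPL13AP5*. *RPL22*, whose protein binds RNA outside the ribosome as well, stood at 44.9, 48.7, 53.3 and 52.4 CPM and 56.2, 49.1, 51.9 and 61.7 CPM, also overlapping, with 0.13 ± 0.072 (SE, adjusted p = 0.164). *RPL36A* and *RPS3A* also had low estimates, at 0.029 and 0.064. Among the 54 genes with 100 reads in a library, at least 50% unique windows and under 10% overlap, 53 were raised and *RPL22* was the exception.

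**Figure D3:**
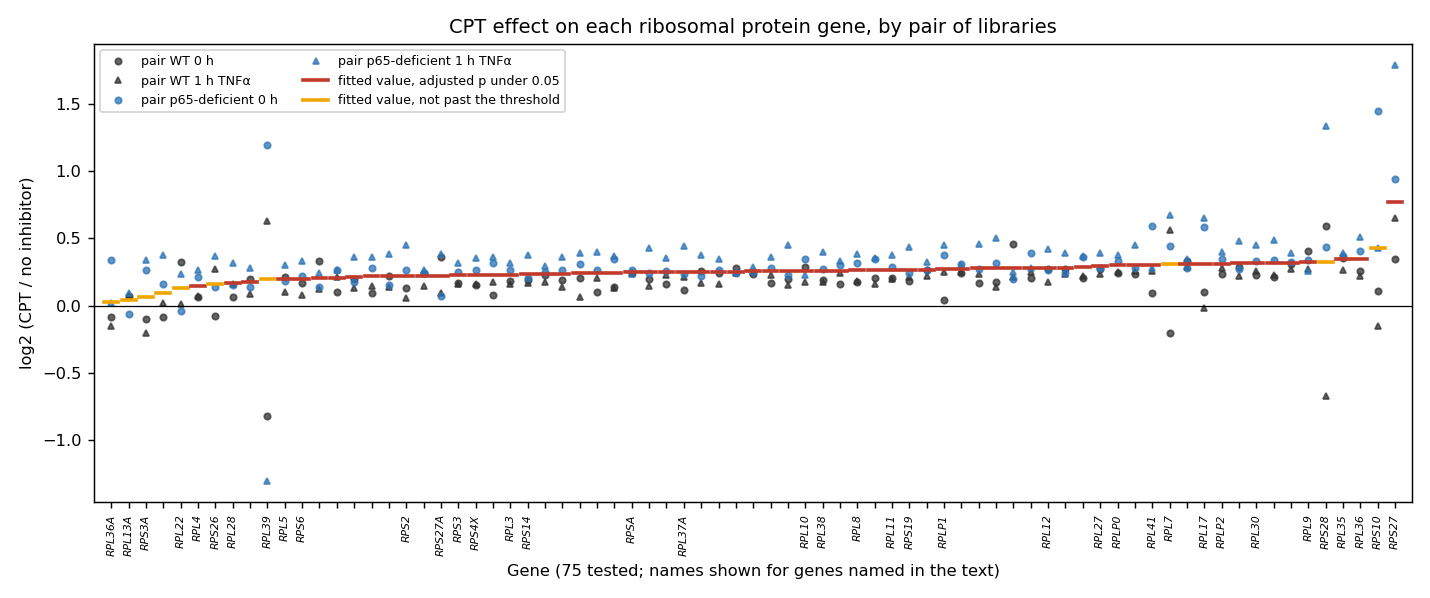
Log2 ratio of CPT to no inhibitor for each of the 75 genes tested, ordered by the fitted value and labelled where the text names the gene; symbols show the 4 pairs of libraries and horizontal bars the fitted log2 fold change, in red where the adjusted p was under 0.05. The 65 red bars lie in a narrow band above 0 apart from *RPS27*, and genes with few reads (*RPL39*, *RPS28*, *RPS10*, *RPS27*) have widely spread pairs.

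Most of the genes had the same direction in every pair. In all 4 pairs 64 of 75 genes were higher with CPT, where 29.8% of all genes were, and for 52 of 75 the CPT libraries lay above all 8 others, where 13.7% of all genes did. The median log2 ratio was 0.20 in the WT 0 h pair, 0.18 in the WT 1 h pair, 0.27 in the p65-deficient 0 h pair and 0.37 in the p65-deficient 1 h pair. In the last pair both libraries were shallow. With the WT pairs alone 44 genes were raised, where 17.3% of all genes were. With the p65-deficient pairs alone 68 were raised, which include those 44, where 24.7% of all genes were. Without the p65-deficient 1 h pair, 47 genes were raised and the median was 0.21, where 15.4% of all genes were raised.

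Within the group, the CPT estimate was read against features of the genes. The 45 tested genes with a C-led pyrimidine run at the start had a median log2 fold change of 0.25 and the 16 without it 0.25. Across the 70 genes with 100 reads in a library, the CPT estimate had a Spearman rho of -0.33 with exonic length, 0.30 with level per kb, -0.17 with genomic span and 0.16 with percent unique windows. Level per kb is itself divided by exonic length, so the first 2 values are not separate. With mean CPM, which is not divided by length, rho was 0.18. These genes share libraries and normalization, so the values describe this set only.

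Related genes were read beside them from lists. *FAU*, which encodes a ubiquitin-like fusion to a ribosomal protein and lies outside the symbol rule, rose by 0.36 ± 0.044 (SE, adjusted p = 5.37e-05). Of 8 genes for ribosomal protein paralogs, *RPL22L1* (0.31, adjusted p = 0.000465 by edgeR) and *RPS27L* (0.34, adjusted p = 0.000352), a p53 target, rose. *RPL26L1* (0.23), *RPL36AL* (0.12) and *RPL7L1* (-0.13) did not pass, and *RPL3L*, *RPL10L* and *RPL39L* fell under the filter. Of 21 other genes with TOP mRNAs, including *FAU*, 16 rose and 0 fell, with a median of 0.18. *VIM* (0.47) and *HNRNPA1* (-0.18), at the ends of this list, had few reads and did not pass, and the elongation factor gene *EEF1A1* stood at 0.051 without passing.

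Mitochondrial ribosomal protein genes changed less evenly, with 28 of 75 raised, 6 lowered and a median of 0.11. *MRPL41* (0.39) and *MRPL51* (0.37) were highest, and *MRPL44* (-0.44) and *MRPL46* (-0.31) lowest, all past the threshold. Genes for ribosome assembly and ribosomal RNA synthesis had 5 of 36 raised and 16 lowered, with a median of -0.11. *RRS1*, an assembly factor of the large subunit, fell by 0.85 ± 0.058 (SE, adjusted p = 7.27e-07) and *RIOK2*, a kinase of small subunit maturation, fell by 0.73 ± 0.074 (SE, adjusted p = 1.35e-05). *NHP2* and *FBL*, which modify ribosomal RNA with guide RNAs, rose by 0.25 and 0.19. The structural and the assembly genes of the ribosome thus had medians of opposite sign in the same 8 libraries, and that difference between lists was not tested.

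**Figure D4:**
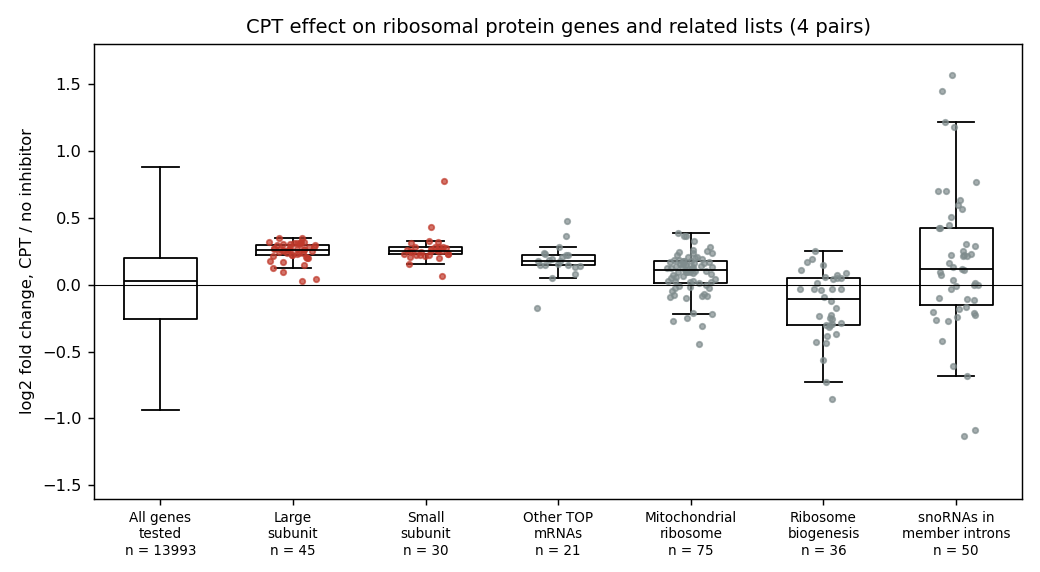
Log2 fold change of CPT against no inhibitor (fit over 4 pairs) for all genes tested and for 6 lists; boxes give median and quartiles, whiskers reach to 1.5 interquartile ranges, points are genes, and red marks ribosomal protein genes. Large and small subunit genes form tight clusters at medians of 0.26 and 0.25, while ribosome biogenesis genes have a median of -0.11.

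Most genes of the group followed its mean across libraries. The log2 level of a gene had a median Pearson r of 0.92 with the mean of the other genes of the group over 12 libraries. Among the lowest were *RPL36A* (-0.27), *RPL39* (-0.22), *RPL22* (0.19) and *RPS3A* (0.21). Of the genes outside the group, *MAGEA3*, a cancer-testis antigen gene, was most like the group's mean (r = 0.99), among 13600 genes over the 12 libraries. *EDF1*, a transcription coactivator gene, *COX4I1*, which encodes a subunit of the respiratory chain, *PDIA6*, which encodes a disulphide isomerase, and *LSM7*, part of a ring that binds RNA, followed at r = 0.98 each. The share of genes outside the group with such high r was not computed. High r can therefore not be called particular to the group.

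ICRF193 served as the comparison for TOP2. Here 0 of 75 genes passed, where 2.17% of 13631 genes did, 0.587% raised and 1.58% lowered (edgeR); 8 had an unadjusted p under 0.05, and DESeq2 called 0, with 2 at an unadjusted p under 0.05. The median log2 fold change was -0.029 and 64 of 75 estimates were below 0, from -0.36 (*RPL7*, 17 to 69 reads) to 0.21 (*RPL36A*). The pair medians were 0.011 and -0.026 in WT cells at 0 h and 1 h, and -0.075 and -0.0068 in p65-deficient cells. The lowest is the pair in which a shallow ICRF193 library was set against a deep one, and without it the median was -0.0060.

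The 2 inhibitors were then compared directly. Of 75 genes, 66 were higher with CPT than with ICRF193 and 0 lower, where 20.9% of 13900 genes were higher, with a median log2 difference of 0.28. The pair medians were 0.19 and 0.22 in WT cells at 0 h and 1 h, and 0.37 in either p65-deficient pair. In the p65-deficient 0 h pair a deep CPT library was set against a shallow ICRF193 library. Without that pair 62 genes were higher, where 2414 of 13953 genes were, and the median was 0.24. *RPL41* (0.43 ± 0.084, SE, adjusted p = 0.00106) and *RPL9* (0.44 ± 0.072, SE, adjusted p = 0.000266) were among the highest, and *RPLP0*, *RPL11* and *RPS6* differed by 0.31, 0.28 and 0.21. *RPL13A*, *RPL22*, *RPL36A*, *RPL39*, *RPS10*, *RPS26*, *RPS28* and *RPS3A* were among those that did not pass. This comparison uses the same CPT libraries as the one above.

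TNFα was tested in WT cells over 3 pairs, 1 for each inhibitor state. It changed 0 of 75 genes, where 0.642% of 13707 genes passed (edgeR); 8 had an unadjusted p under 0.05, and DESeq2 called 0, with 4 at an unadjusted p under 0.05. The median log2 fold change was 0.060, with pair medians of 0.078 without inhibitor, 0.056 with CPT and 0.037 with ICRF193. In all 3 pairs 46 of 75 genes were higher at 1 h, where 13.0% of all genes were. The estimates ran from -0.24 (*RPL7*) to 0.31 (*RPL39*), both with few reads. Without the CPT pair, 3 genes passed as raised, where 1.48% of all genes did. In the pairs with an inhibitor, in either line, TNFα and a longer time with the inhibitor cannot be told apart.

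In p65-deficient cells the corresponding pair medians were -0.090, 0.011 and 0.0059. Between the lines, the interaction test over 6 pairs called 0 of 75 genes, where 0.228% of 14459 genes passed (edgeR); 20 had an unadjusted p under 0.05, and DESeq2 called 0, with 11 at an unadjusted p under 0.05. The median interaction was -0.089. For the untreated and the CPT-treated p65-deficient pair the 0 h library is deep and the 1 h library shallow, and the effects of TNFα and of depth cannot be told apart in these 2 pairs.

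**Figure D5:**
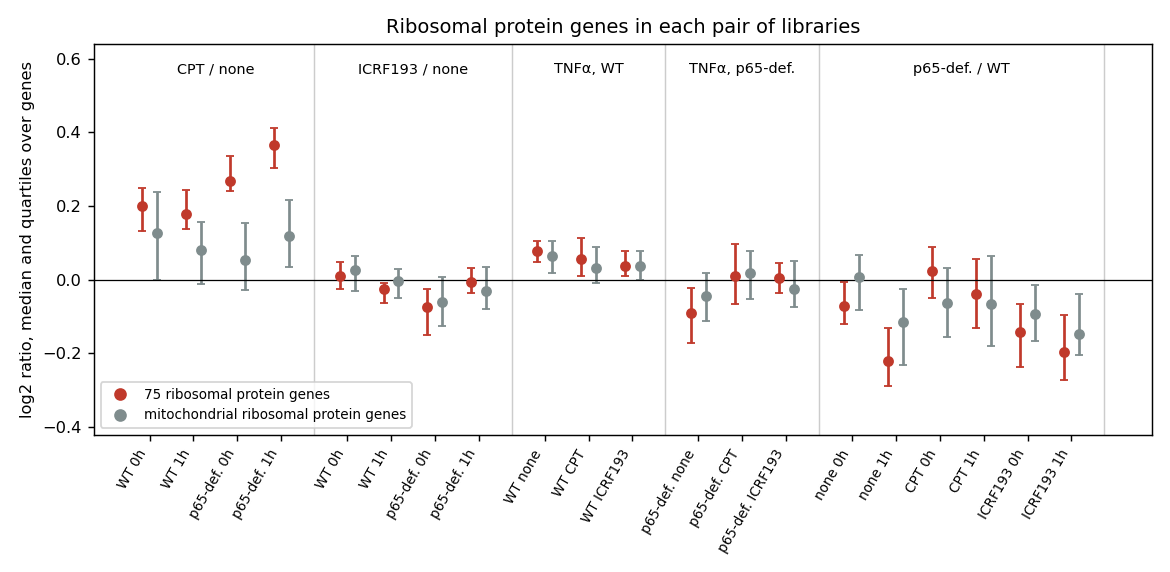
Median log2 ratio over the 75 ribosomal protein genes (red) and over the mitochondrial ribosomal protein genes (grey) in each pair of libraries, with bars from the lower to the upper quartile over genes. The red medians lie between 0.18 and 0.37 in the 4 CPT pairs, between -0.075 and 0.011 in the ICRF193 pairs, and between -0.22 and 0.025 in the 6 pairs of p65-deficient against WT cells.

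The p65-deficient clone was compared with WT cells over 6 pairs. Of 75 genes, 3 were higher and 32 lower (edgeR), where 15.2% and 16.9% of 13730 genes were, and the median log2 difference was -0.10. The pairs differed by the depth of the p65-deficient library. Both deep pairs are at 0 h and without ICRF193, and every 1 h pair is shallow. Depth can therefore not be told apart from TNFα and inhibitor in this split. In the 2 pairs with a deep p65-deficient library the medians were -0.071 (no inhibitor, 0 h) and 0.025 (CPT, 0 h). In the 4 pairs with a shallow one they were -0.22 (no inhibitor, 1 h), -0.038 (CPT, 1 h), -0.14 (ICRF193, 0 h) and -0.20 (ICRF193, 1 h). The deep pairs alone gave 1 higher gene, 0 lower genes and a median of -0.016 (edgeR, with 5 genes at an unadjusted p under 0.05), where 1.58% of all genes were higher and 2.07% lower. The shallow pairs alone gave 2 higher and 45 lower genes, where 16.5% of all genes were higher and 17% lower. Calls over all genes were thus fewer in the deep pairs as well. The deep fit rests on 2 pairs and the shallow fit on 4, so their counts of calls are not directly comparable. These 2 fits were chosen after seeing the data. The part of depth in the difference was not tested.

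*RPLP0* (0.14 ± 0.046, SE, adjusted p = 0.0309) and *RPL22* (0.16 ± 0.058, SE, adjusted p = 0.0489) were among the higher genes. *RPLP0* thus differed in direction from its stalk partners *RPLP1* (-0.22) and *RPLP2* (-0.19), both lower in the clone, although *RPLP1* stood at 0.066 in the deep pairs alone.

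*RPL28*, which encodes a large subunit protein, was the most lowered gene, at 416 to 482 CPM (median 433) in WT and 307 to 388 CPM (median 327) in p65-deficient cells. The groups did not overlap, and the difference was -0.37 ± 0.044 (SE, adjusted p = 2.78e-05). *RPL12*, which encodes a protein at the base of the stalk, ranged over 543 to 656 CPM (median 564) and 427 to 572 CPM (median 451), with overlap and a difference of -0.29 ± 0.038 (SE, adjusted p = 8.11e-05). Both were lower in each of the 6 pairs, the deep ones included. *RPL4* (-0.23) and *RPS2* (-0.23) followed among the genes that passed. *FAU* (-0.15) was lower as well. In the other lists 2 of 75 mitochondrial ribosomal protein genes were higher and 23 lower, and 0 of 36 ribosome biogenesis genes higher and 23 lower.

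Whether the CPT effect differed between the lines was tested as an interaction over 4 pairs. For 2 of 75 genes it was larger in p65-deficient cells, where 2.39% of 14573 genes were higher in this test. The median interaction over the 75 genes was 0.12, and 50 genes had both p65-deficient ratios above both WT ratios, where 22.7% of all genes did. *RPL17*, whose protein lines the exit tunnel, had log2 ratios of 0.098, -0.014, 0.58 and 0.65 in the order WT 0 h, WT 1 h, p65-deficient 0 h and p65-deficient 1 h, and a difference between lines of 0.57 ± 0.13 (SE, adjusted p = 0.0165). *RPS3A*, a small subunit gene, had -0.097, -0.20, 0.27 and 0.34 and a difference of 0.45 ± 0.13 (SE, adjusted p = 0.0488). Both have few unique windows (43.7% and 26.3%), *RPL17* shares 59.7% of its exonic bases with another gene, and DESeq2 called neither.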

How the data were processed

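The 12 libraries hold total RNA (TruSeq Stranded) of 12 conditions without replicates. The deposited files give unnormalized counts. The authors used Trimmomatic for trimming and, per the file headers, counted reads on the exons of hg19 genes with featureCounts 1.5.0 at default settings, which ignore strand and leave out reads that map to several places or overlap several genes. The submitters' processing notes also name STAR and deepTools, without versions. Counts per library ranged from 8101212 to 22051046. Their number limits the precision of every value, and intervals cover counting error only.

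Counts were tested with edgeR 4.0.16 (TMM, filterByExpr, quasi-likelihood test, pair as block, Benjamini-Hochberg adjustment over all genes tested, threshold 0.05). Pairs differ in line, inhibitor or TNFα and stand in for replicates, so p-values measure the spread between pairs, which is not the spread between cultures. The SE is the size of the fitted log2 value divided by the root of its F statistic. The fit was tested on simulated data. CPM are TMM-scaled, and CPM per kb were divided by the exonic length in the files. Members were the 77 symbols named by the rule in the report. The members and lists were chosen with earlier results of these data known. Some genes that the naming rule picks are not reported here. Named genes were RPLP0, RPLP1, RPLP2, RPSA, RPL5, RPL11, RPL3, RPL10, RPL13A, RPL22, RPL41, RPS3, RPS6, RPS14, RPS19 and RPS27A, the 5 highest and 5 lowest members per comparison and by level, members under the filter, the fusion and paralog lists, the 2 highest and 2 lowest genes of each other list, and the 5 genes most like the members' mean. RELA, EEF1A1 and the members that did not pass, or that stood apart from the others in coherence, were named after their values were seen. Unique windows of 50 bases came from GENCODE 29 transcripts and promoters from the RefSeq table. The alternatives were DESeq2 1.42.0, DESeq2 size factors, total counts, TMM without the members, no filter, no block, each line alone, a share without the 10 most abundant other genes, and leaving out each pair. The fits by depth were added after seeing the data. Scripts ran in Python 3.11.15 (pandas 2.3.3, numpy 2.4.6, matplotlib 3.10.9, scipy 1.17.1) and in R 4.3.3.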

Additional observations from a re-analysis of the deposited data

Results flagged for a closer look

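The CPT effect on *RPL17* differed between the lines by 0.57 on the log2 scale (p65-deficient minus WT, 2 pairs each), and that on *RPS3A* by 0.45, by the interaction test (edgeR, adjusted p = 0.0165 and 0.0488). These are 2 of 75 genes, a share near that of all genes higher in this test (2.39%). Both ratios in p65-deficient cells lay above both in WT cells for each gene. *RPL17* was counted with 166 to 620 reads per library and *RPS3A* with 241 to 620. The adjusted p over the alternatives ran from 0.00156 to 0.234 for *RPL17* and from 0.0174 to 0.447 for *RPS3A*. The part of multi-mapping reads and of library depth in these differences was not tested.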

How the results depend on the processing

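The rise with CPT kept its direction, with 44 to 68 of 75 genes raised over all alternatives run and 47 to 66 when a pair was left out, and so did the comparison of CPT with ICRF193 (57 to 67). The replicate block moved the count for the clone from 35 to 5 genes when it was dropped, and left the other counts within 1.5 times. The clone calls over all 13730 genes went from 4408 to 2043 in that step. The clone comparison gave 15 to 46 genes when a pair was left out (20 without the pair of no inhibitor at 0 h, 17 without that at 1 h, and 15 without either ICRF193 pair) and 1 gene in the deep pairs alone, where 24 of 75 estimates changed sign, among them those of *RPLP1* (0.066) and *RPSA* (0.0062). The calls over all genes ran from 3186 of 13786 to 5136 of 13656 when a pair was left out, and were 521 of 14268 in the deep pairs. ICRF193 gave 1 gene without the filter, and 0 to 1 when a pair was left out (1 without the WT 0 h pair). Among all genes, 363 of 20188 passed without the filter and 177 of 13300 without the WT 0 h pair. TNFα gave 0 to 3 genes when a pair was left out (3 without the CPT pair). The difference in CPT effect gave 6 genes with DESeq2 size factors, 1 with total counts, 8 without the filter, 0 with DESeq2 (18 at an unadjusted p under 0.05) and 0 to 8 when a pair was left out (7 and 8 without the WT 0 h and 1 h pairs, 0 and 1 without the p65-deficient 0 h and 1 h pairs). Of the 8 without the WT 1 h pair, 1 was lowered. In this test 696 of 14573 genes passed in the main fit and 1096 of 20662 without the filter. Without the WT 0 h and 1 h pairs, 863 of 15024 and 1697 of 15003 genes passed. Without the p65-deficient 0 h and 1 h pairs, 277 of 14924 and 586 of 14987 did. The difference in TNFα effect gave 2 genes without the filter and 0 to 3 when a pair was left out (3 without the p65-deficient ICRF193 pair). Here 132 of 21096 genes passed without the filter and 99 of 14637 without the p65-deficient ICRF193 pair. Without the 10 most abundant other genes, the lowest share was 3.45% and the highest 4.46%. In the WT pairs alone the CPT estimate turned to -0.14 for *RPL36A*, -0.042 for *RPS10*, -0.052 for *RPS28* and -0.18 for *RPS3A*, none of which had passed. When a pair was left out, the CPT estimate ranged from -0.098 to 0.093 for *RPL36A* and from -0.025 to 0.16 for *RPS3A*, that of ICRF193 from -0.66 to 0.16 for *RPL7*, and that of TNFα from -0.19 to 0.61 for *RPL39* and from -0.59 to 0.20 for *RPL7*. The cause of these changes was not tested. Outside the interaction tests, the medians moved by less than the spread between pairs (1 SD) under the scalings, left-out pairs and splits by depth. The split by line and the interaction medians were not part of that check. With CPT the median was 0.16 in the WT pairs alone and 0.32 in the p65-deficient pairs alone, against 0.26 over all. For CPT against ICRF193 it was 0.18 and 0.37, against 0.28. Both WT medians moved by more than that spread. The median interaction for TNFα was -0.089 in the main fit and -0.045 with total counts. For CPT it was 0.12 in the main fit and 0.19 without the p65-deficient 0 h pair. Depth limits genes with few reads most. *RPL39*, *RPS10* and *RPS28* had few reads and did not pass with CPT, and no detection limit was computed for them.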

Other observations

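Many small nucleolar RNAs, which guide the modification of ribosomal RNA, are cut from the introns of ribosomal protein genes. By the coordinates in the files, 54 such RNAs lie within 27 of the 77 genes, and 50 were tested. With CPT 17 rose and 6 fell (edgeR, where 23.2% and 25.1% of all genes did), and the median log2 fold change was 0.12. *SNORD43* in *RPL3* (1.56 ± 0.15, SE, adjusted p = 9.53e-06) and *SNORD58C* in *RPL17* (1.45 ± 0.15, SE, adjusted p = 1.52e-05) were highest on the log2 scale. *SNORD18C* in *RPL4* (-1.13 ± 0.34, SE, adjusted p = 0.0188) and *SNORD83B* in *RPL3* (-1.09 ± 0.17, SE, adjusted p = 0.000358) were lowest, and these 4 had at most 165 reads in any library. *SNORD43* and *SNORD83B*, which share the host *RPL3*, thus moved in opposite directions, while *RPL3* itself stood at 0.23.

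With ICRF193, which called 0 ribosomal protein genes, 15 of the 50 intronic RNAs fell and 0 rose, where 1.58% of all genes fell. *SNORA52* in *RPLP2* (-0.55 ± 0.045, SE, adjusted p = 3.37e-12) and *SNORA64* in *RPS2* (-0.46 ± 0.065, SE, adjusted p = 4.55e-06) were lowest. The median log2 ratio over these RNAs was -0.24 and 0.037 in the WT pairs at 0 h and 1 h, and -0.22 and -0.052 in the p65-deficient pairs, so that both 0 h pairs were lower than both 1 h pairs. In the p65-deficient clone 25 of 50 were lower and 0 higher, where 16.9% of all genes were lower, and the pair medians lay between -0.57 and -0.14, all below 0, the deep pairs included. Reads of an unspliced host cannot be told apart from reads of the RNA in its intron.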
